A study of Mus musculus with 10 samples.

Results

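The genes described here are the matrix metalloproteinases (MMPs), the ADAMTS proteases and the tissue inhibitors of metalloproteinases (TIMPs), chosen as every gene whose symbol begins with Mmp, Timp or Adamts followed by a digit. The rule found 45 genes, 43 of the 17816 genes in a table of day 7 Sertoli cells and 44 of the 20007 genes in a table of adult testis, and 42 of them were in both. Mmp7 and Mmp20 were listed in the adult table only and Mmp21 in the day 7 table only. The series measured polyadenylated RNA of mouse by sequencing, to ask what is altered when Rnf20, an E3 ubiquitin ligase that acts on histone H2B, is lost from Sertoli cells. The day 7 table holds 2 samples of Rnf20 Flox/Flox mice, which the labels call WT, and 2 of Amh-Rnf20-/- mice, in which Cre driven by the Amh promoter removes floxed exons of Rnf20 in Sertoli cells. All 4 were taken at 7 days after birth by their titles and the methods, although the growth protocol in their labels speaks of adult tissue. They were Sertoli cells brought into culture with collagenase and trypsin, passaged, and kept as adherent cells, so they are not freshly isolated cells. The adult table holds 3 samples labelled WT and 3 labelled RNF20 conditional knockout, from testis as the labels give it, and their exact age and the Cre line are not given in the sources used here.

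MMPs are zinc proteases that cleave collagens, gelatin and other extracellular proteins, and most are secreted as inactive precursors or held at the cell surface by a membrane anchor. ADAMTS proteases are secreted, carry thrombospondin repeats, and trim procollagens or cut large proteoglycans such as aggrecan and versican. TIMPs bind the active site of MMPs, and of some ADAMTS proteases, and block it. In the testis, such proteases and inhibitors act on the basement membrane of the seminiferous tubule and on the junctions that germ cells cross.

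The 4 sequences that follow are the 250 bases before the RefSeq start of genes that stood apart in level or in direction: Timp1, the inhibitor with the highest level at day 7, Timp4, the inhibitor that was lower in the adult samples labelled knockout, Mmp3, which had one of the larger fitted differences at day 7, and Mmp11, an abundant MMP of both tables. They are read 5′ to 3′ on the strand of the gene from RefSeq on GRCm38.p6, at chrX:20869916-20870165 (plus strand) for Timp1, chr6:115252206-115252455 (minus strand) for Timp4, chr9:7445572-7445821 (plus strand) for Mmp3 and chr10:75932503-75932752 (minus strand) for Mmp11. Capitals mark matches to 3 motifs searched on both strands, the AP-1 element TGAGTCA, the GC box GGGCGG and the TATA box TATAAA.
Timp1: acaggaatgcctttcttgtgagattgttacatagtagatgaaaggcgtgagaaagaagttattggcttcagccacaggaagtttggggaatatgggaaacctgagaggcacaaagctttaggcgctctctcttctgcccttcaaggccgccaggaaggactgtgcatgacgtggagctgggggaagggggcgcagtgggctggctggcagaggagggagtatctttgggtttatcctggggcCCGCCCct
Timp4: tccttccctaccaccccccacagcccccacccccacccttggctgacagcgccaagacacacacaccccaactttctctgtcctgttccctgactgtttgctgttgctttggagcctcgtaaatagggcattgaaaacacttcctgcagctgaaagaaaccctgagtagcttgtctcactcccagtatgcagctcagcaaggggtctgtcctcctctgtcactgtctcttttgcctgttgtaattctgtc
Mmp3: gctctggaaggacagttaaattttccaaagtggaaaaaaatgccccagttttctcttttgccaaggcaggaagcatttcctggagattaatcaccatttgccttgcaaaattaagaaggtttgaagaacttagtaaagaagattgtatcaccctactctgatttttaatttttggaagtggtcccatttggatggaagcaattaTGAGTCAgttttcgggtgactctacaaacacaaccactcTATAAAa
Mmp11: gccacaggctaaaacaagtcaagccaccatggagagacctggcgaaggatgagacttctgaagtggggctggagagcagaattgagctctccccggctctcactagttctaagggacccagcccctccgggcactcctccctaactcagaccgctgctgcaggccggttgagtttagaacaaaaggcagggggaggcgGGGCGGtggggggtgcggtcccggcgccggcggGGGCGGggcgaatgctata
The Mmp3 window held an AP-1 element that began 46 bases before the start and a TATA box that began 7 bases before it. The Mmp11 window held GC boxes that began 52 and 19 bases before the start. The Timp1 window held a GC box on the other strand, and the Timp4 window held none of the 3 motifs. Among all 32851 windows of this length in the same RefSeq set, 4.46% held the AP-1 element, 32.7% the GC box and 12.4% the TATA box. Of the members, 31 had a window, and their 34 windows held an AP-1 element in 6, a GC box in 16 and a TATA box in 8. These matches describe letters only.

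The rounded counts of a sample summed to 17477268 to 17705347 in the cultures and to 15431912 to 16574144 in the adult samples. Levels are given as FPKM, fragments scaled by transcript length and by library size, which allows levels of different genes to be compared. Fold changes come from counts scaled with TMM, a method that balances libraries of different composition, and groups are called separate when no TMM-scaled value of one group lies within the other. The TMM factors were between 0.984 and 1.02 at day 7 but between 0.711 and 0.761 in the adult WT and between 1.27 and 1.42 in the adult samples labelled knockout, so FPKM ratios and fitted folds differ in adult testis. With total counts in place of TMM the median log2 fold change of all adult genes was 0.87, against 0.01 with TMM.

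The FPKM of Rnf20, the targeted gene, was 16.6 and 16.0 in the control cultures and 10.3 and 12.6 in the Amh-Rnf20-/- cultures, which did not overlap. Its log2 difference was -0.49 (SE 0.12, adjusted p = 0.222, edgeR's quasi-likelihood test), and 26.1% of all genes tested lay below the controls in the same way. In adult testis Rnf20 had 4.89, 3.32 and 4.09 in WT and 9.16, 5.76 and 9.85 in the samples labelled knockout. The fitted log2 fold change of 0.12 (SE 0.27) turned to -0.075 under median-ratio scaling and DESeq2. The counts cover the whole gene and, in whole testis, every cell type, so Rnf20 did not check the adult labels. The directions below are therefore those of the libraries labelled conditional knockout.

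Levels of cell type markers differed between the groups. For the counts of markers above or below, 24.8% of all genes tested lay above the controls and 26.1% below at day 7. In adult testis 42.4% lay above WT and 43.1% below. In the day 7 cultures the summed FPKM of 12 Sertoli markers was between 1541 and 1692 in Rnf20 Flox/Flox and 867 and 1245 in Amh-Rnf20-/-, with 8 of the 12 below and 1 above. Summed peritubular myoid markers were between 2376 and 2515 against 4115 and 4291, with 7 of 7 above, and summed stromal fibroblast markers between 2152 and 2236 against 3306 and 3920, with 6 of 6 above. Leydig markers were above in 5 of 6, while spermatogonium markers were below in 6 of 7 (summed FPKM 43.8 to 52.2 against 24.7 and 32.7) and spermatocyte markers in 5 of 7. In adult testis the 7 spermatid markers summed to between 122241 and 190844 FPKM in WT and to between 3.33 and 81.8 in the samples labelled knockout, and 7 of 7 were below. Stromal markers (6 of 6), Leydig markers (6 of 6) and macrophage markers (7 of 7) were above in adult testis, as were endothelial markers (5 of 5) and 5 of 7 myoid markers, while the myoid marker Actg2, a smooth muscle actin, was below (255, 335 and 278 FPKM in WT against 1.67, 2.22 and 3.60). The summed Sertoli markers were between 586 and 760 FPKM in WT and between 2877 and 5991 in the samples labelled knockout, with 6 of 12 above and 1 below. No marker of these lists that was in a table was at 0 in all of its samples. The part of these shifts in the results below was not tested, and in bulk RNA fewer cells of a type and less RNA per cell cannot be told apart.

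At day 7 no member passed both thresholds of the study (a log2 fold change beyond 1 in either direction, with an adjusted p below 0.001) and none had an adjusted p under 0.05 (edgeR's quasi-likelihood test with Benjamini-Hochberg adjustment over 12880 genes, of which 0% passed either rule). Of the 43 members, 30 had enough signal to be tested. At an unadjusted p under 0.05, 13 of the 30 were higher and 2 lower in Amh-Rnf20-/-, where 8.52% of all genes tested were higher and 6.99% lower. Both Amh-Rnf20-/- cultures lay above both controls in 16 members and below them in 5, against 24.8% and 26.1% of all genes. DESeq2, which gave 126 genes past both thresholds, placed 2 members there, Adamts5 and Mmp3. The filter admitted Mmp8, Mmp27 and Mmp28 through the Amh-Rnf20-/- cultures alone and Mmp9 through the controls alone, so their entry rested on the genotype where they were higher, and the counts are no support. The methods describe each day 7 group as separate individuals, more of them than the samples analysed here, and the labels do not tie adult samples to animals. The p-values measure the spread between these samples, which may be technical.

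**Figure D1:**
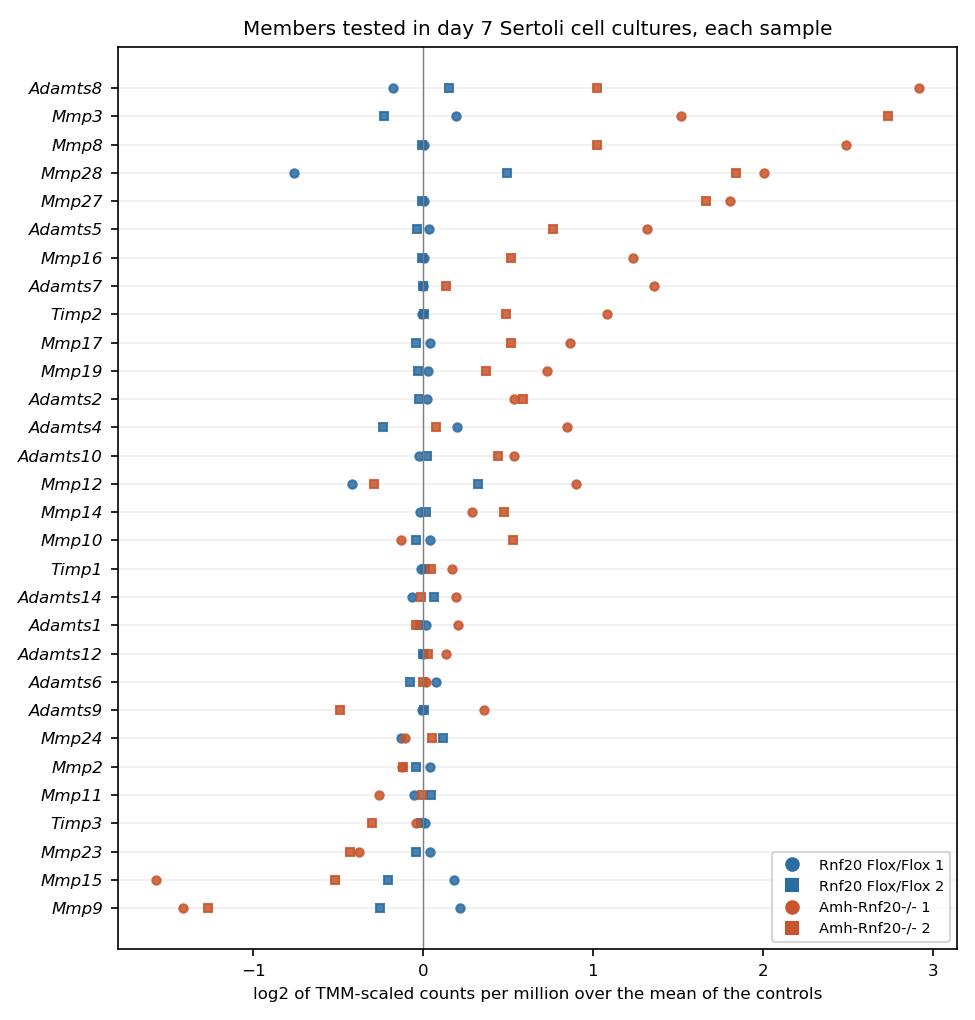
Log2 of the TMM-scaled CPM of each day 7 culture over the mean of the Rnf20 Flox/Flox cultures (x axis) for the 30 members tested (y axis), with circles for sample 1 and squares for sample 2 of each genotype. The Amh-Rnf20-/- points lie to the right of both controls in 16 members and to the left in 5. The Amh-Rnf20-/- cultures differ from each other more than the controls do in some members, such as Adamts7 and Adamts8. They differ less than the controls in others, such as Mmp2 and Mmp9.

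Timp1 was the most abundant member at day 7. Timp1, which also acts as a growth factor for several cell types, had FPKM values of 1199 and 1235 in the controls and 1319 and 1236 in Amh-Rnf20-/-, a log2 fold change of 0.11 (SE 0.08). Timp2, which both blocks MMPs and helps activate proMMP2 at the cell surface, had 117 and 118 in the controls and 241 and 161 in Amh-Rnf20-/-. Both Amh-Rnf20-/- values were above both controls, at a log2 difference of 0.82 (SE 0.21, adjusted p = 0.222, edgeR's quasi-likelihood test). The difference for Timp2 was 0.49 without Amh-Rnf20-/- sample 1 and 1.08 without sample 2. Timp3, the inhibitor that stays bound to the extracellular matrix, had 221 and 218 against 207 and 174, a log2 difference of -0.17 (SE 0.11). Timp4 stayed between 0.13 and 0.28 FPKM in the 4 cultures and was not tested. Within each culture Timp1 made up between 74.7% and 78.6% of the summed FPKM of the TIMPs, and Timp2 7.61% and 7.53% in the controls against 13.6% and 10.3% in Amh-Rnf20-/-.

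Among the MMPs, the membrane-anchored Mmp14, which activates proMMP2, had FPKM values of 178 and 184 in the controls and 214 and 246 in Amh-Rnf20-/-. The groups did not overlap, at a log2 difference of 0.39 (SE 0.09, adjusted p = 0.213). Mmp2, the gelatinase it activates, had 116 and 109.9 against 100.2 and 102, a log2 difference of -0.12 (SE 0.08). The Mmp2 values were lower in both Amh-Rnf20-/- cultures, but by little. Mmp11, a stromelysin that is cleaved by furin inside the cell, had 129 and 139 against 108 and 131, and these groups overlapped. Mmp23, a small membrane-anchored MMP, had 26.4 and 24.3 against 18.1 and 18.9, lower in both Amh-Rnf20-/- cultures at a log2 difference of -0.40 (SE 0.10, adjusted p = 0.213).

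Mmp3, a stromelysin that cleaves many matrix proteins and other proMMPs, had 1.94 and 1.46 FPKM in the controls and 4.71 and 11.1 in Amh-Rnf20-/-. Both Amh-Rnf20-/- values were above the controls and far from each other, and the log2 difference was 2.25 (SE 0.49, adjusted p = 0.187, edgeR). Mmp17, anchored to the membrane by a lipid, had 3.83 and 3.65 against 6.61 and 5.24 (log2 difference 0.70, SE 0.16). Mmp19, expressed in many tissues, had 8.85 and 8.59 against 14.0 and 11.02 (0.56, SE 0.15). Mmp27 was low, with 0.27 and 0.25 against 0.83 and 0.76. In each of these the Amh-Rnf20-/- values were above the controls. Mmp9, the other gelatinase, had 2.87 and 2.07 TMM-scaled counts (CPM) in the controls and 0.931 and 1.03 in Amh-Rnf20-/-, below in both.

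Of the ADAMTS proteases at day 7, Adamts2, which removes the amino-terminal propeptide of procollagens, had 34.2 and 33.0 FPKM in the controls and 46.7 and 49.4 in Amh-Rnf20-/-. The cultures agreed within each genotype, and the log2 difference was 0.56 (SE 0.07, unadjusted p = 0.000996, adjusted p = 0.132, edgeR's quasi-likelihood test), the smallest p among the members. Adamts10, linked to fibrillin microfibrils, had 12.3 and 12.8 against 17.6 and 16.5 (log2 difference 0.49, SE 0.08). Adamts5, a major aggrecan-cleaving protease, had 5.90 and 5.64 against 14.0 and 9.57. Both Amh-Rnf20-/- values were above both controls, at a log2 difference of 1.07 (SE 0.20, adjusted p = 0.166, edgeR).

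Adamts7, which cleaves cartilage oligomeric matrix protein (COMP), showed how unlike the Amh-Rnf20-/- cultures were. It had 19.5 and 19.4 FPKM in the controls, 47.3 in Amh-Rnf20-/- sample 1 and 20.5 in sample 2. Adamts8, a weaker proteoglycanase, had 0.50 and 0.63 against 4.14 and 1.12, and the collagenase Mmp8 had 0.31 and 0.31 against 1.70 and 0.62. In all 3 genes sample 1 was the farther one. Adamts9 had 13.7 and 13.9 in the controls, with 17.2 in sample 1 and 9.59 in sample 2, on either side of them. Adamts1 (between 37.7 and 44.3 FPKM), Adamts12 (between 7.27 and 7.80), Adamts14 (up to 12.8) and Adamts6 (between 4.57 and 5.20) had log2 differences between 0.01 and 0.09. The median log2 fold change of the 30 members tested was 0.40, against -0.00 over all genes, and 0.11 without Amh-Rnf20-/- sample 1. The 30 include Mmp8, Mmp27 and Mmp28, admitted through the Amh-Rnf20-/- cultures alone, and Mmp9, admitted through the controls alone, so the median is no support.

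The other members tested at day 7 were Adamts4, Mmp10, Mmp12, Mmp15, Mmp16, Mmp24 and Mmp28. Mmp15, a membrane-type MMP, had 2.45 and 1.89 FPKM in the controls and 0.71 and 1.48 in Amh-Rnf20-/-, below in both. Mmp16 had 0.71 and 0.70 against 1.71 and 1.26 and Mmp28 had 0.09 and 0.22 against 0.59 and 0.53, above in both. Adamts4, Mmp10, Mmp12 and Mmp24 overlapped between the groups. The 13 members not tested (Adamts3, Adamts13, Adamts15 to Adamts20, Mmp1b, Mmp13, Mmp21, Mmp25 and Timp4) did not exceed 0.95 FPKM in any culture.

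In adult testis 16 members passed both thresholds and all 16 were higher in the samples labelled knockout, where 23.0% of the 15919 genes tested passed as higher and 23.7% as lower. At an adjusted p under 0.05 there were 25 members, where 81.5% of all genes had one, and of these 22 were higher and 3 lower, against 40.9% and 40.6% of all genes. Every sample labelled knockout lay above every WT sample in 23 members and below in 3, where 42.4% and 43.1% of all genes did so. Of the 44 members 27 were tested, and 18 of these reached the filter only in the samples labelled knockout and 3 only in WT, so their entry rested on 1 group and the counts are no support. Timp1, Timp2, Timp3, Mmp11, Mmp14 and Mmp24 reached it in both groups, and all but Mmp24 passed both thresholds. Leaving out 1 sample moved the number of members past both thresholds to between 2 and 22, and with the replicate number as a block none passed, although 21 higher and 3 lower members kept an adjusted p under 0.05 in that fit, where 38.1% of all genes were higher and 38.6% lower at that threshold. Without WT sample 1, 2 or 3 the number was 3, 3 and 2, without labelled knockout sample 2 or 3 it was 6 and 9, and without labelled knockout sample 1 it was 22. The share of all genes past both thresholds moved as well, to 19.7%, 16.9%, 17.2%, 21.3%, 29.4% and 64.7% in the same order, from 46.7%. With scaling by total counts 54.1% of all genes were higher and 30.01% lower at an adjusted p under 0.05.

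**Figure D2:**
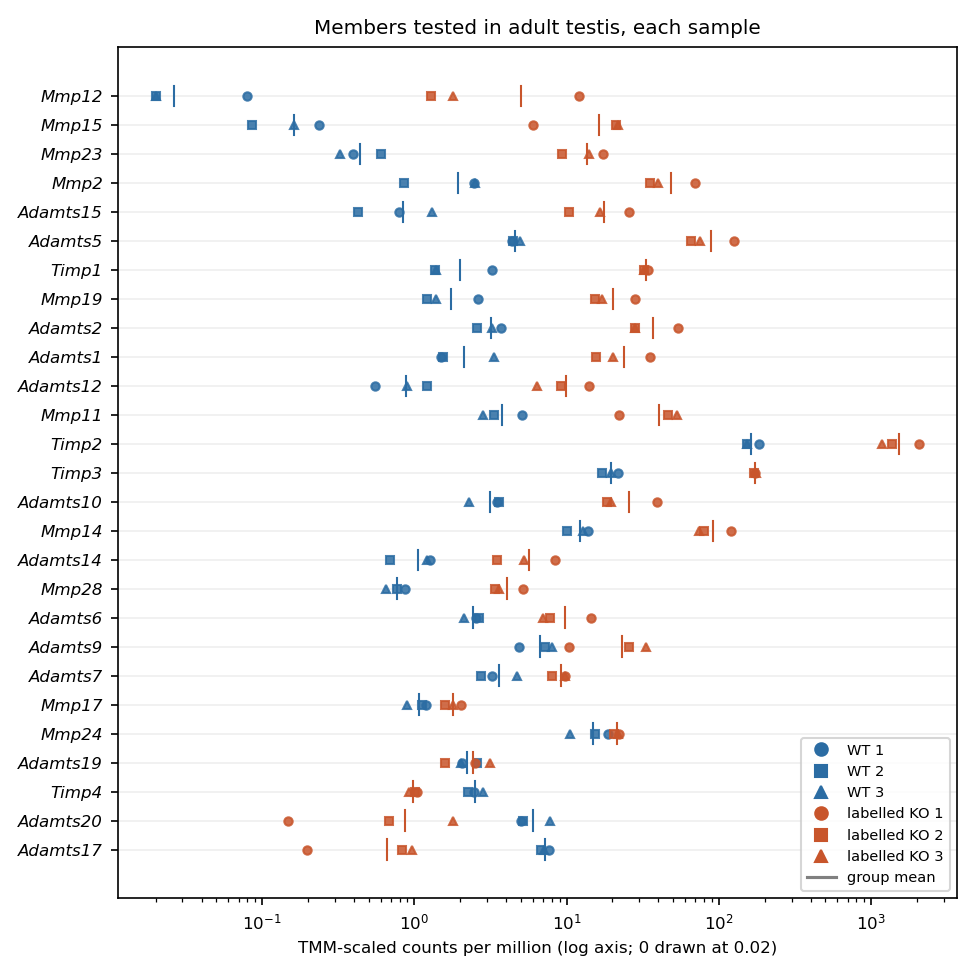
TMM-scaled CPM of each adult testis sample (x axis, logarithmic, 0 drawn at 0.02) for the 27 members tested (y axis), in blue for WT and orange for the samples labelled knockout, with a line at each group mean. The labelled knockout samples lie above all WT samples in 23 members and below them in 3, Timp4, Adamts17 and Adamts20.

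Of the inhibitors, Timp1, Timp2 and Timp3 rose in the samples labelled knockout and Timp4 fell at an adjusted p under 0.05. Timp2 had FPKM values of 41.3, 32.3 and 34.7 in WT and of 779, 549 and 492 in the samples labelled knockout, with no overlap. Its fitted difference was 9.38-fold (log2 fold change 3.23, SE 0.30, adjusted p = 0.000152, edgeR's quasi-likelihood test). Timp1 had 3.94, 1.55 and 1.68 in WT and 70.0, 69.5 and 71.9 in the samples labelled knockout. These 3 values were close to each other, and the log2 fold change was 4.03 (SE 0.37, adjusted p = 0.000138). Timp3 had 3.75, 2.75 and 3.36 against 49.9, 52.1 and 56.1, with the smallest p of any member (log2 fold change 3.15, SE 0.14, adjusted p = 2.79e-05), and it passed both thresholds with any 1 sample left out.

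Timp4, whose protein is found in few tissues, had 0.70, 0.59 and 0.80 FPKM in WT and 0.49, 0.51 and 0.48 in the samples labelled knockout. It fell by 1.34 on the log2 scale (SE 0.25, adjusted p = 0.00297, edgeR), with 31, 26 and 35 counts in WT and 21, 22 and 20 in the samples labelled knockout. The size of this difference rests on the scaling, as it was -0.50 with an adjusted p of 0.120 under total counts. With limma it was -0.42 on log2(FPKM + 0.1) and -0.18 on log2(FPKM + 1), with adjusted p of 0.0802 and 0.0977. Within each adult sample Timp2 made up between 79.3% and 86.8% of the summed FPKM of the TIMPs, where Timp1 held the largest share in the cultures.

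**Figure D3:**
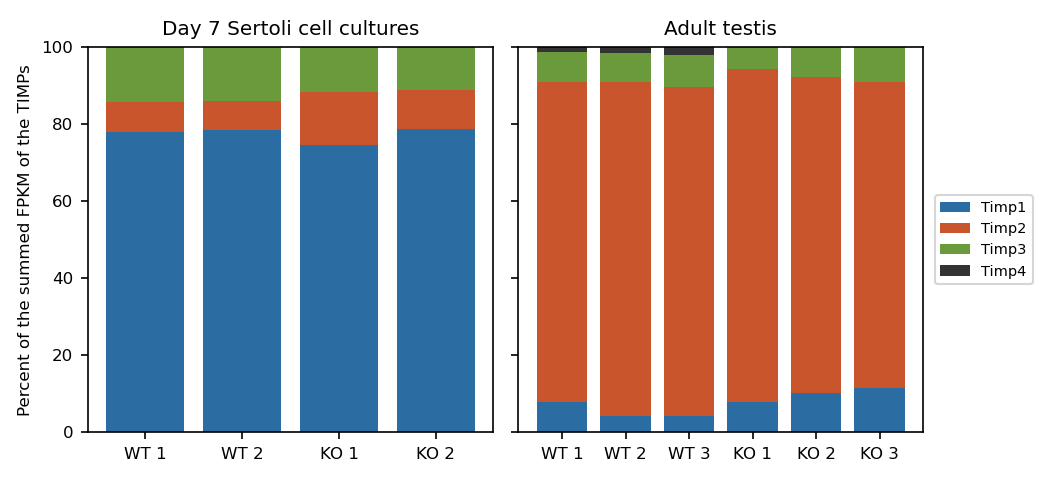
Percent of the summed FPKM of the 4 TIMPs (y axis) held by each TIMP in each sample (x axis), for the day 7 cultures at left and adult testis at right. Timp1 holds between 74.7% and 78.6% in the cultures, and Timp2 between 79.3% and 86.8% in adult testis, in both groups.

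Among the MMPs of adult testis, Mmp14 had FPKM values of 2.94, 2.02 and 2.72 in WT and 43.2, 30.5 and 29.5 in the samples labelled knockout. It rose without overlap, by 2.91 on the log2 scale (SE 0.25, adjusted p = 0.00011, edgeR's quasi-likelihood test). Mmp2, the gelatinase that MMP14 activates, had 0.66, 0.22 and 0.68 against 31.5, 16.9 and 19.9 (log2 fold change 4.62, SE 0.49, adjusted p = 0.000243). Mmp23 had 0.17, 0.36 and 0.24 against 17.0, 9.73 and 16.0 (4.93, SE 0.39, adjusted p = 8.54e-05). Every sample labelled knockout was above every WT sample in these 3 genes.

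Mmp11 had 1.93, 1.24 and 1.13 FPKM in WT and 14.2, 31.6 and 37.6 in the samples labelled knockout, and rose by 3.43 on the log2 scale (SE 0.42, adjusted p = 0.000434). Unlike Mmp2 and Mmp14, it was lowest in labelled knockout sample 1. Mmp19 had 0.65, 0.28 and 0.35 against 11.7, 6.71 and 7.84 (log2 fold change 3.53, SE 0.41, adjusted p = 0.000367). Mmp15 was close to absent in WT, with 3, 1 and 2 counts, and had 122, 461 and 474 counts in the samples labelled knockout. With library sizes scaled by TMM, the ratio of the summed counts was 101 (95% exact binomial interval 46.1 to 275, counting error only). The FPKM of Mmp15 was 1.89, 7.00 and 7.55 in the samples labelled knockout. Mmp24, a membrane-type MMP known from neural tissue, had 3.53, 2.68 and 1.97 against 6.96, 6.86 and 7.64, and its fitted log2 fold change of 0.53 (SE 0.23, adjusted p = 0.0669) did not pass, although it had an adjusted p of 0.00162 under total counts.

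Mmp12, the macrophage elastase, had 1, 0 and 0 counts in WT and 244, 28 and 39 in the samples labelled knockout. Most of these counts came from labelled knockout sample 1. With library sizes scaled by TMM, the ratio of the summed counts was 178 (95% exact binomial interval 31.7 to 7044, counting error only). Mmp28 had 0.21, 0.17 and 0.15 FPKM against 1.99, 1.40 and 1.57, and Mmp17 had 0.21, 0.19 and 0.16 against 0.61, 0.51 and 0.60, above in each sample labelled knockout. Mmp16 was not tested and had 3, 3 and 2 counts in WT against 54, 40 and 48.

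Of the ADAMTS proteases, Adamts5 had 0.42, 0.40 and 0.48 FPKM in WT and 20.4, 11.4 and 13.6 in the samples labelled knockout. It rose by 4.27 on the log2 scale (SE 0.30, adjusted p = 6.15e-05, edgeR's quasi-likelihood test), and it passed both thresholds with any 1 sample left out. Adamts15, another proteoglycanase, had 0.12, 0.07 and 0.19 against 6.66, 2.80 and 4.76 (log2 fold change 4.36, SE 0.52, adjusted p = 0.00041). Adamts1, a proteoglycanase known from ovulation, had 0.25, 0.24 and 0.55 against 9.78, 4.58 and 6.20 (3.48, SE 0.47, adjusted p = 0.000694). In all 3, labelled knockout sample 1 was the highest.

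Adamts2 had 0.42, 0.27 and 0.37 FPKM in WT and 9.91, 5.59 and 5.94 in the samples labelled knockout (log2 fold change 3.52, SE 0.35, adjusted p = 0.000185, edgeR). Adamts10 had 0.69, 0.69 and 0.43 against 13.5, 6.58 and 7.39 (3.03, SE 0.39, adjusted p = 0.000549). Adamts12 passed both thresholds as well, with 0.05, 0.10 and 0.08 against 2.15, 1.48 and 1.08. The groups were apart in each of these genes. Adamts6, Adamts7, Adamts9 and Adamts14 had an adjusted p under 0.05 with log2 fold changes between 1.36 and 2.41.

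Adamts17 and Adamts20 ran the other way. Adamts17 had 0.98, 0.81 and 0.91 FPKM in WT and 0.04, 0.19 and 0.30 in the samples labelled knockout, and fell by 3.43 on the log2 scale (SE 0.53, adjusted p = 0.00121, edgeR). Adamts20 had 1.28, 1.22 and 2.20 against 0.03, 0.14 and 0.37, and fell by 2.76 (SE 0.76, adjusted p = 0.0143). The call for Adamts20 was lost under total counts (log2 difference -1.87, edgeR adjusted p = 0.0622) and without labelled knockout sample 2 (-2.61, adjusted p = 0.0545), and the adjusted p of Adamts17 under total counts was 0.00520. Both were lowest in labelled knockout sample 1, as were the summed Sertoli, spermatogonium, spermatocyte and spermatid markers, while the summed myoid, stromal, macrophage and endothelial markers were highest there, and the part of these levels in the values was not tested. Adamts19 overlapped between the groups. The 17 members not tested in adult testis (Adamts3, Adamts4, Adamts8, Adamts13, Adamts16, Adamts18, Mmp1b, Mmp3, Mmp7, Mmp8, Mmp9, Mmp10, Mmp13, Mmp16, Mmp20, Mmp25 and Mmp27) did not exceed 1.13 FPKM in any sample.

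Labelled knockout sample 1 stood apart from samples 2 and 3. Of the 27 members tested, it was the highest of the 3 in 20, the lowest in 5 and between them in 2. This order was not counted over all genes, and 18 of the 27 reached the filter only in the samples labelled knockout, so the counts are no support. The log2 ratio of labelled knockout sample 1 to the mean of the others was 2.89 for Mmp12, 1.04 for Adamts10 and 0.89 for Mmp2. It was -1.81 for Mmp15, -1.74 for Adamts17 and -1.16 for Mmp11. Timp3 (0.00) and Timp1 (0.09) were nearly level across the samples labelled knockout. On the same measure the summed stromal markers were at 1.32, the Sertoli markers at -0.90 and the spermatocyte markers at -6.48. Single Sertoli markers ranged from -4.11 for Fshr to 1.41 for Inha, with Sox9 at -3.08 and the abundant Clu at -1.22.

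**Figure D4:**
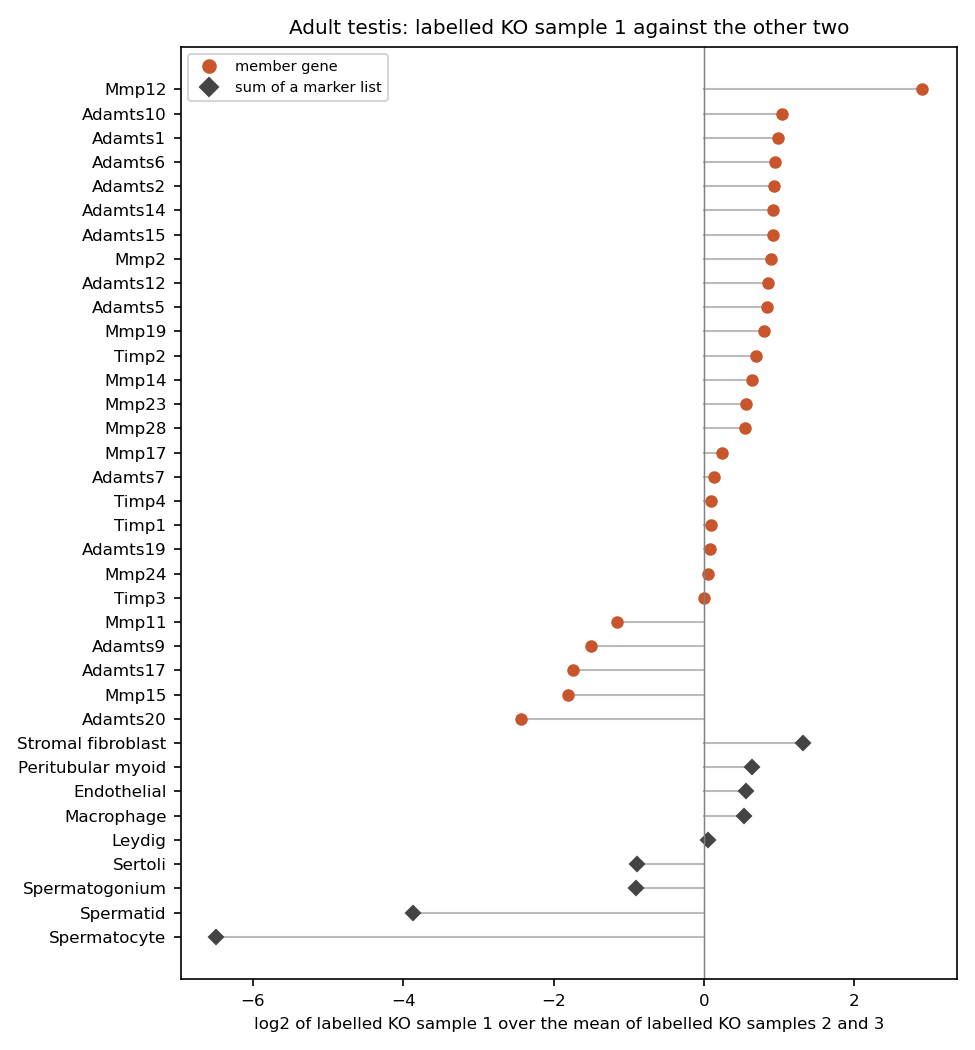
Log2 of the value in labelled knockout sample 1 over the mean of labelled knockout samples 2 and 3 in adult testis (x axis) for the 27 members tested (circles) and the summed markers of 9 cell types (diamonds). Mmp12 is at 2.89 and Adamts20 at -2.43, and the stromal and spermatocyte markers are at 1.32 and -6.48.

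Ratios of the summed FPKM of the TIMPs to that of the MMPs or the ADAMTS proteases were followed within each sample. They compare RNA levels and do not measure inhibition. The TIMP sum is mostly Timp1 in the cultures and mostly Timp2 in adult testis. At day 7 the TIMP sum was 3.21 and 3.23 times the MMP sum in the controls and 3.65 and 2.90 times in Amh-Rnf20-/-, on either side of the controls. In adult testis the ratio was 4.58, 4.84 and 4.89 in WT and 6.38, 5.85 and 4.71 in the samples labelled knockout, which overlapped. Relative to the ADAMTS sum, the TIMP sum was 7.68, 6.14 and 5.08 in WT and 12.1, 15.2 and 11.4 in the samples labelled knockout, with no overlap. In the day 7 cultures this quotient was lower in both Amh-Rnf20-/- samples, at 7.95 and 9.19, than in the controls, at 10.1 and 10.4. These ratios were given no test.

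Genes of the same system were followed from 3 lists, and none passed both thresholds at day 7. In adult testis 23.0% of all genes passed as higher and 23.7% as lower. Of 11 tested activators and other inhibitors, 7 passed both thresholds as higher in adult testis, among them Furin, the convertase that activates several members (1.43, 1.13 and 1.57 FPKM against 23.7, 28.5 and 26.2), Serpine2, a serpin that inhibits plasminogen activators (1.24, 1.12 and 1.11 against 12.2, 13.9 and 17.5), Lrp1, the receptor that clears MMP and TIMP complexes (0.93, 1.05 and 1.23 against 43.3, 23.8 and 21.9), and the convertase Pcsk5 (0.28, 0.16 and 0.37 against 6.84, 3.88 and 3.56). Of 4 tested ADAMTS-like proteins, which lack the protease domain, 1 passed, Adamtsl4 (0.21, 0.33 and 0.17 against 5.12, 3.35 and 3.69), while Adamtsl1, Adamtsl5 and Papln overlapped. Of 15 tested substrates 8 passed as higher and 2, Comp and Ncan, as lower. Col4a1, a collagen of basement membranes, had 1.26, 1.17 and 0.95 against 17.5, 16.3 and 17.7, and Col4a2 1.62, 1.38 and 1.25 against 14.7, 14.0 and 14.7. The fibrillar collagens Col1a2 (log2 fold change 4.26, SE 0.29) and Col1a1 (4.53, SE 0.36) also passed, and both are among the stromal markers as well. At day 7 Col1a1, Col1a2, Col4a1 and Col4a2 lay above the controls in both Amh-Rnf20-/- cultures, with log2 differences between 0.30 and 0.67.

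Of 22 members tested in both tables, 11 had every knockout or labelled knockout sample above every control in each table and 4 lay below at day 7 and above in adult testis. Over all genes tested in both tables these shares were 15.1% and 11.6%. The remaining 7 members overlapped at day 7. Most of the 22 reached the adult filter through the samples labelled knockout alone, so the counts are no support. The tables were normalized separately and differ in material, so levels were not tested across them. Mmp3 was at most 0.12 FPKM in adult testis but reached 11.1 in the cultures. It lies in a cluster of MMP genes on chromosome 9 (chr9:7272514-7699585, GRCm38.p6), of which 9 were measured, and in adult testis no gene of the cluster other than Mmp12 exceeded 0.29 FPKM.

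Several members share their place with another gene, and whether counting used strand is not given in the sources used here. Cep295nl lies inside Timp2 on the same strand with no shared exon base, and in adult testis it had 370, 382 and 375 FPKM in WT and 1.66, 4.68 and 4.15 in the samples labelled knockout, opposite to Timp2. Mmp28 shares 466 exon bases with 1700020L24Rik on the opposite strand, which had 145, 175 and 163 FPKM in WT and 1.07, 4.60 and 4.74 in the samples labelled knockout. Timp3 shares 1733 exon bases with Syn3, Timp4 shares 90 with Syn2 and Mmp19 shares 789 with Tmem198b, all on opposite strands. In adult testis Syn2 was lower in the samples labelled knockout, as Timp4 was (2.45, 1.76 and 2.82 FPKM against 0.06, 0.43 and 0.61). Tmem198b was higher, as Mmp19 was (1.67, 1.68 and 1.73 against 7.73, 5.48 and 6.41), and Syn3 was higher, as Timp3 was, at 0.62 FPKM or less. Values of these members, above all Mmp28 in WT, are uncertain to that extent.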

How the data were processed

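RNA of 4 day 7 Sertoli cell cultures and 6 adult testis samples was sequenced. The authors mapped day 7 reads with HISAT to GRCm38.p6 and with Bowtie2 to the reference genes and obtained FPKM by RSEM, with versions and strand not given in the sources used here, and the adult RNA-seq is not described in the study's text. The deposited tables hold estimated counts, FPKM and TPM per sample, and TPM was not used here. A further 20 columns of the adult table held no values. Estimated counts were rounded and tested with edgeR 4.0.16 (quasi-likelihood, TMM, Benjamini-Hochberg over all genes tested) in R 4.3.3, within each table. A gene was tested where its FPKM reached 0.5 in a number of samples equal to the group size. Thresholds, from the study, were a log2 fold change beyond 1 in either direction with an adjusted p below 0.001. A standard error is the log2 fold change over the root of the test statistic. DESeq2 1.42.0, limma 3.58.1 on log2(FPKM + 0.1) and log2(FPKM + 1), other scalings and filters, a replicate block and each sample left out were alternatives. Counts at an adjusted p under 0.05 under each alternative, medians, and the calls of single lower members were added after seeing the data.

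Members and lists were chosen with earlier results of these data known. The rule for named members covers Rnf20, every TIMP, members with a mean FPKM of at least 5 in a group, the 12 smallest p-values in adult testis and the 6 smallest at day 7, and, of each list, the 4 genes with the smallest p in adult testis. Other members given with values were chosen after their values were seen. On simulated counts, edgeR recovered 84.1% of 107 genes changed by 1.5 and 100% of 93 changed by 3 on the log2 scale among 12880 genes of the day 7 design, and 27.5% of 91 and 75.2% of 109 among 15919 genes of the adult design, at an adjusted p under 0.05, with 25 false calls in the day 7 design and 3 in the adult design. The changed genes in these simulations were drawn only from those above a minimum mean count, with the spread fitted for each gene. The rates therefore do not carry over to members with few counts. In the data themselves no day 7 gene had an adjusted p under 0.05, and Mmp3, with a fitted log2 difference of 2.25, did not pass. The absence of day 7 calls thus does not show that changes of these sizes are absent. No pair of samples of a group agreed within counting noise. Depth limits members with few counts, and elsewhere the spread between samples is larger than counting noise. Promoter sequences and positions come from RefSeq on GRCm38.p6. Python 3.11.15, pandas 2.3.3 and matplotlib 3.10.9 made the tables and plots.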

Additional observations from a re-analysis of the deposited data

Results flagged for a closer look

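In 4 members every Amh-Rnf20-/- culture lay below the controls at day 7 and every adult sample labelled knockout lay above WT, so the direction was opposite in the tables. The log2 fold changes at day 7 and in adult testis were -0.95 and 6.57 for Mmp15, -0.12 and 4.62 for Mmp2, -0.40 and 4.93 for Mmp23, and -0.17 and 3.15 for Timp3. With 1 culture left out the day 7 value of Timp3 lay between -0.30 (without Amh-Rnf20-/- sample 1) and -0.044 (without sample 2), and that of Mmp2 between -0.16 and -0.077 (without Rnf20 Flox/Flox sample 2 or 1). For Mmp15 the Amh-Rnf20-/- cultures were far from each other, at 2.91 and 6.05 TMM-scaled CPM against 9.80 and 7.51 in the controls. With all 4 cultures none of the day 7 values passed the test, the fitted adult value of Mmp15 depends on the prior count because WT held few counts, and the difference between the tables was not tested. The tables differ in age, in material (cultured cells or testis) and in marker levels, which cannot be told apart from the difference. Over all genes tested in each of them, 11.6% lay below at day 7 and above in adult testis. Of the 22 members tested in both tables none lay above at day 7 and below in adult testis, but Adamts16 and Adamts20, too low for the test at day 7, did so on the scaled counts. In adult testis Adamts16 overlapped in FPKM, at 0.13, 0.13 and 0.12 in WT against 0.09, 0.13 and 0.08.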

How the results depend on the processing

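At day 7 the number of members past both thresholds was 0, 2 with DESeq2 (0.978% of all genes), and between 0 and 5 with 1 sample left out (1 without Amh-Rnf20-/- sample 1, 5 without sample 2, where 0.474% and 5.05% of all genes passed), and the number of list genes was 0, 2 with DESeq2 and between 0 and 6. With an adjusted p under 0.05, higher members numbered 0, 7 with DESeq2 and between 0 and 19 with 1 sample left out, and lower members between 0 and 4. Over all genes 3.005% were higher with DESeq2, and without Amh-Rnf20-/- sample 1 or 2 the shares were 9.74% and 21.0% higher and 11.7% and 18.8% lower. With 1 Amh-Rnf20-/- sample left, its spread is taken from the controls, which were closer to each other. Of the members followed by the rule for named genes, 3 turned sign at day 7. With 1 sample left out Adamts1 was between -0.040 and 0.20, Adamts14 between -0.013 and 0.19 and Adamts9 between -0.49 and 0.36. The lower values of Adamts1 and Adamts14 were those without Amh-Rnf20-/- sample 1. Adamts9 was 0.00046 with median-ratio scaling, 0.00055 with DESeq2, 0.00086 without Rnf20 Flox/Flox sample 2 and 0.36 without Amh-Rnf20-/- sample 2, against -0.0051. In adult testis Rnf20 was -0.075 with median-ratio scaling and with DESeq2.

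In adult testis 16 members and 18 list genes passed both thresholds. Leaving out 1 sample gave between 2 and 22 members (higher members between 2 and 21, lower between 0 and 1) and between 5 and 22 list genes. Members numbered 25 at an adjusted p under 0.05 alone, 3 of them lower. Lower members past both thresholds numbered 1 with median-ratio scaling and 3 with DESeq2. In those fits 46.2% and 64.4% of all genes passed in either direction, against 46.7% in the main fit. At an adjusted p under 0.05, higher members numbered between 18 and 24 under every alternative, and lower members 1 with total counts and 0 with a mean FPKM of at least 1, which tests 19 members and none of the 3, and 2 with either limma fit and without labelled knockout sample 2. Over all genes the share called higher ranged from 34.7% to 54.1% and the share called lower from 30.01% to 44.2%. The median log2 fold change of the members was 3.15, 3.69 with limma on log2(FPKM + 0.1) and 2.29 on log2(FPKM + 1), and that of all adult genes was 0.01, 0.81 and 0.65. Of the 27 members tested in adult testis 18 reached the filter only in the samples labelled knockout, so the adult median of the members is no support either. Without Amh-Rnf20-/- sample 1 the day 7 median of the members was 0.11, further from 0.40 than the SD between samples of 0.17. The cause of these shifts was not tested.

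Replicate numbers were not used to pair the samples in the main fit. Deviations of same-numbered samples correlated at 0.036 in the cultures and at 0.011 to 0.025 in the adult samples. Low values cannot exclude pairing. With 2 cultures per genotype the other pairs are forced to the same size with the opposite sign, -0.036. In adult testis each WT sample correlated best with its own number, a hint from the data and not from the design. With the replicate block, 0 members and 0 list genes passed both thresholds in adult testis, as did 0 of all genes, and 0 members at day 7.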
